A study of Mus musculus with 9 samples.

Results

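The genes described here encode the NCoR corepressor and its stable partners, the Sin3 scaffolds and 3 class I histone deacetylases: Ncor1, Tbl1x, Tbl1xr1, Gps2, Sin3a, Sin3b, Hdac1, Hdac2 and Hdac3. They were taken by symbol from a gene expression table of mouse bone marrow cells, where all 9 were found, as 14 of the 21388 listed transcripts and 9 of the 16537 gene symbols, with the values of a gene's transcripts summed. All animals were FVB/NJ mice and all cells came from bone marrow. Early LP were leukemic progenitors of the PML-RAR genotype in the early phase, median LP were leukemic progenitors of the same genotype in the median phase, and HPC were wild-type hematopoietic progenitor cells from postnatal day 42, with 3 libraries each. PML-RAR is the fusion of the PML protein with a retinoic acid receptor that defines acute promyelocytic leukemia. The promoter that drives the fusion, the surface markers used to isolate the cells and the age of the leukemic mice are not stated by the labels used here. Nothing in the labels ties each library to an animal of its own, and the p-values therefore reflect the spread between these libraries alone, which may be technical.

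Nuclear receptors without ligand repress their target genes by binding NCoR, a large scaffold protein that holds histone deacetylase 3 together with TBL1X, TBL1XR1 and GPS2. Sin3 proteins are separate scaffolds that bring histone deacetylases 1 and 2 to DNA-binding repressors such as the Mad family. Histone deacetylases remove acetyl groups from histone tails, and PML-RAR is known to bind these corepressors more tightly than the normal receptor does.

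Each library held 21876266 to 25810090 estimated counts. Log2 counts correlated at 0.99 to 0.992 across genes between libraries of a group, at 0.987 to 0.99 between early LP and median LP, and at 0.89 to 0.905 between LP and HPC. Markers of other cells differed with the groups. Summed erythroid markers were at 10.2 to 15.3 CPM (counts scaled to library size) in early LP, 13.1 to 18 for median LP and 2676.4 to 3152.9 for HPC, with 7 of 7 tested markers lower in early LP and 6 lower and 1 higher in median LP. The 7 listed promyelocyte and primary granule genes summed to 35259.1 to 40257.7 CPM in early LP, 29053.6 to 31066.1 for median LP and 13268.8 to 14958.6 for HPC. The 10 stem and multipotent progenitor markers summed to 262.9 to 263.4 CPM in early LP, 244.6 to 261.4 for median LP and 1030.2 to 1166.5 for HPC. No marker of these 3 lists was at 0 in all libraries of a group. The part of cell makeup in the results below was not tested, and in bulk RNA a change in the share of a cell type and a change within cells cannot be told apart.

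Against HPC, Sin3a and Sin3b rose and Hdac2, Hdac3 and Gps2 fell in both leukemic phases. Sin3a stood out in size, at 7.83-fold the HPC level in early LP and 9.52-fold in median LP, while no called change of another member was larger than the 1.69-fold of Sin3b in early LP. In early LP, 3 members were higher (Sin3a, Sin3b, Hdac1), 3 were lower (Hdac2, Hdac3, Gps2) and 3 did not pass (Ncor1, Tbl1x, Tbl1xr1). In median LP, 4 were higher (Sin3a, Sin3b, Ncor1, Tbl1xr1), 3 were lower (Hdac2, Hdac3, Gps2) and 2 did not pass (Hdac1, Tbl1x). A gene was called at an adjusted p under 0.05 in edgeR's quasi-likelihood test over 12837 genes. Most genes differed in these comparisons: 73.2% of all tested genes were called in early LP against HPC (35.3% higher, 37.9% lower) and 73.8% in median LP against HPC (36% higher, 37.7% lower). The members' counts of 6 and 7 of 9 lie near these shares and are therefore no result about the members as a set. The median log2 fold change of the 9 members was 0.13 in early LP and 0.06 in median LP, against -0.04 over all tested genes in each. FPKM ranges did not overlap HPC for 5 of the 9 members in early LP (75.3% of all tested genes) and 6 in median LP (76%), and CPM ranges for 6 (74.8%) and 6 (75.7%). Both comparisons share the HPC libraries.

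**Figure D1:**
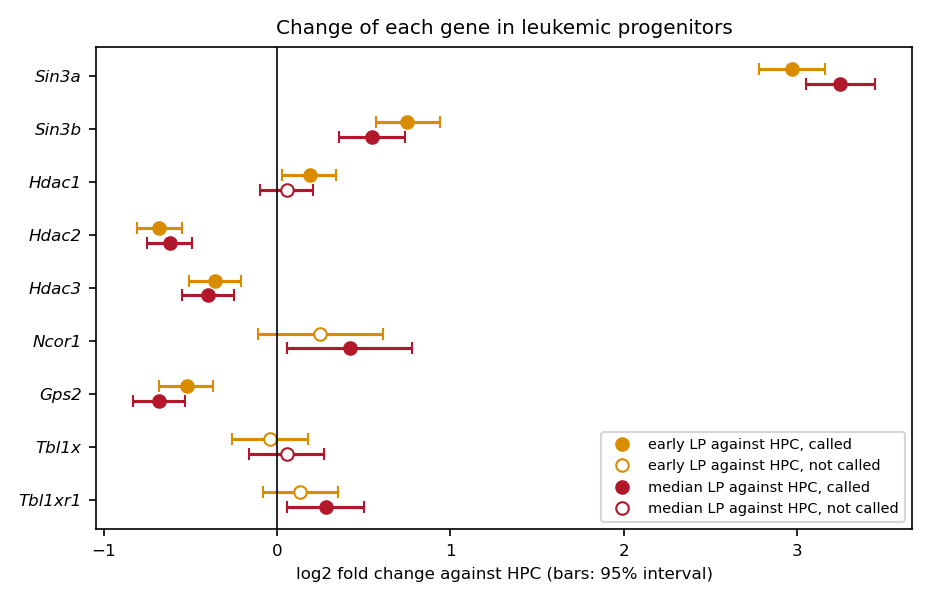
Log2 fold change of each of the 9 genes in early LP and in median LP against HPC (x axis; edgeR, bars are 95% intervals), with filled points for genes called at an adjusted p under 0.05. Sin3a lies at 2.97 and 3.25, far to the right of the others, and Hdac2, Hdac3 and Gps2 lie left of 0 in both.

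Sin3a encodes the better-studied scaffold of the Sin3 complex, whose paired helical domains dock repressors and whose central domain holds the deacetylases. Its level in FPKM, fragments scaled to transcript length and library size, was 162, 154 and 161 in the early LP libraries, 179, 189 and 200 in the median LP libraries and 19.9, 22.1 and 20.2 in the HPC libraries. All 6 LP libraries lay above all 3 HPC libraries, with no overlap. The means were 159 ± 4.34 FPKM in early LP, 189 ± 10.9 for median LP and 20.7 ± 1.175 for HPC (SD, n = 3 each). The log2 fold change was 2.97 in early LP (SE 0.09, edgeR adjusted p = 5.52e-11) and 3.25 in median LP (SE 0.09, edgeR adjusted p = 2.74e-11). The fold had a 95% interval of 6.85 to 8.96 in early LP and of 8.31 to 10.9 in median LP. Ranked by mean FPKM among the 12837 tested genes, Sin3a was at place 446 in early LP, 351 for median LP and 3747 for HPC. By size of log2 fold change in either direction it was at place 1519 in early LP and 1434 in median LP.

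RefSeq lists 2 start sites for Sin3a, and both promoters are shown because this gene carried the largest change of the 9; those of Sin3b, which also rose, and of Hdac2 and Gps2, which fell, are set beside them. Each runs from 250 bases before to 50 bases after the annotated start, 5′ to 3′ on the plus strand of GRCm38.p6, with CCAAT or GGGCGG on either strand in capitals.
Sin3a, chr9:57071790-57072089: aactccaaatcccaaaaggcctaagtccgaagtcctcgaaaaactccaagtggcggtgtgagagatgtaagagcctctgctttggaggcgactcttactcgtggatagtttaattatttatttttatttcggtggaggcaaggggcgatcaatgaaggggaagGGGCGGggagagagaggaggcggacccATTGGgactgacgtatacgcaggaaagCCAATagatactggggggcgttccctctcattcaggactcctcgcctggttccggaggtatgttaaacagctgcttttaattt
Sin3a, chr9:57076126-57076425: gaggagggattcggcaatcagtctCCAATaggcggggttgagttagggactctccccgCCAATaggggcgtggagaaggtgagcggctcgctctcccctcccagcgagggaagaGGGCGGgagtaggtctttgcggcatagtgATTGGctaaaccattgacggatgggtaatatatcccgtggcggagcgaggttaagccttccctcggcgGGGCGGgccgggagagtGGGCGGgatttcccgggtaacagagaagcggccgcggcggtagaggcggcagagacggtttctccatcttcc
Sin3b, chr8:72723020-72723319: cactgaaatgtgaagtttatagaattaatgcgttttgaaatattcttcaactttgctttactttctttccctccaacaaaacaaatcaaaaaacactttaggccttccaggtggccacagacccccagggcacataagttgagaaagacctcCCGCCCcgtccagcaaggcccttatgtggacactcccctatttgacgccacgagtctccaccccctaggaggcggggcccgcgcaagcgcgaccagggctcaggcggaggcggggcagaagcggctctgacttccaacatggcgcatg
Hdac2, chr10:36974294-36974593: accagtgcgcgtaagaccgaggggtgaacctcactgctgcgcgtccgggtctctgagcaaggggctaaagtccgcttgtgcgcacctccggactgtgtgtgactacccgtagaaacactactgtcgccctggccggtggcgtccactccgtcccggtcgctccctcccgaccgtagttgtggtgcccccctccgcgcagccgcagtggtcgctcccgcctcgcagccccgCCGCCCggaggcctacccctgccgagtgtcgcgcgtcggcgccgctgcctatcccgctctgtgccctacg
Gps2, chr11:69913770-69914069: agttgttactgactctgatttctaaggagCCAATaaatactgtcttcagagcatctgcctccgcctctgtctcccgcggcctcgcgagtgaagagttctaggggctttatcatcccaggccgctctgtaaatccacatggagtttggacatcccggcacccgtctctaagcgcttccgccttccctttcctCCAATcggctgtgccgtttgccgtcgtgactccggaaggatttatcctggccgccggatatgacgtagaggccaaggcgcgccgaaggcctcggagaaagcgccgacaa
The upstream Sin3a window holds 2 copies of CCAAT, the letters of the CCAAT box, and 1 of GGGCGG, the letters of the GC box. The downstream window holds 3 of each. CCAAT occurs in 37.4% of the 32851 RefSeq promoters of this length and GGGCGG in 35.7%. Sin3b and Hdac2 have 1 GGGCGG each and no CCAAT, and Gps2 has 2 CCAAT and no GGGCGG. Genes that rose and genes that fell thus both hold each motif. None of the 5 windows has CACGTG, the E-box letters bound by Myc and Mad family factors (7.15% of promoters), or AGGTCA, a core site of nuclear receptors (16.3%). GAGGAA, the core letters of PU.1 sites (28.3% of promoters), occurs in Gps2 and in none of the other 4 windows. Both strands were searched, and the marked matches do not overlap one another. These matches describe the letters in the windows only. Promoters of 7 of the 9 members were matched.

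Of the listed transcripts, 3 belong to Sin3a, whose gene covers chr9:57072040-57128368 (mm10). NM_001110351 carried most of the signal, at 149, 139 and 147 FPKM in early LP, 163, 173 and 182 for median LP and 15.2, 15.8 and 15.2 for HPC. NM_001110350 averaged 12.3 ± 0.0907 FPKM in early LP, 14.1 ± 2.21 for median LP and 2.92 ± 0.836 for HPC (SD, n = 3 each). NM_011378 averaged 1.87 ± 0.795 FPKM in early LP, 2.44 ± 0.675 for median LP and 2.39 ± 0.392 for HPC (SD, n = 3 each). Both of the higher transcripts were thus above their HPC range in all LP libraries, while the third was low in all groups. NM_001110351 held 90.8% ± 0.798 of the gene's estimated counts in early LP, 91.1% ± 0.549 for median LP and 73.9% ± 2.51 for HPC (SD, n = 3 each). The difference from HPC was 16.9 percentage points in early LP and 17.1 in median LP, with ranges that did not overlap (exact two-sided permutation test, p = 0.1 each, the smallest that 3 against 3 allows; Benjamini-Hochberg 0.225 over 9 tests). The GENCODE model of NM_001110351 on GRCm38 has 4961 exon bases, against a deposited length of 4979, and starts at position 57075338, in neither promoter window above and downstream of the deposited gene start at 57072040. It is thus not the model that was counted, and how many bases set the transcripts apart in the counting is not known here. The deposited gene start is the annotated start of the upstream promoter window, and whether NM_001110351 starts there was not tested. In GENCODE, the predicted proteins have 1274, 1277 and 1274 residues for NM_001110351, NM_001110350 and NM_011378. On the opposite strand, Man2c1os overlaps 205 of the 5385 exon bases of Sin3a and 2700012I20Rik overlaps 8. Neither has a value used here, and the labels do not give the use of strand in the authors' counting, so reads of these antisense genes cannot be told apart from those of Sin3a.

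**Figure D2:**
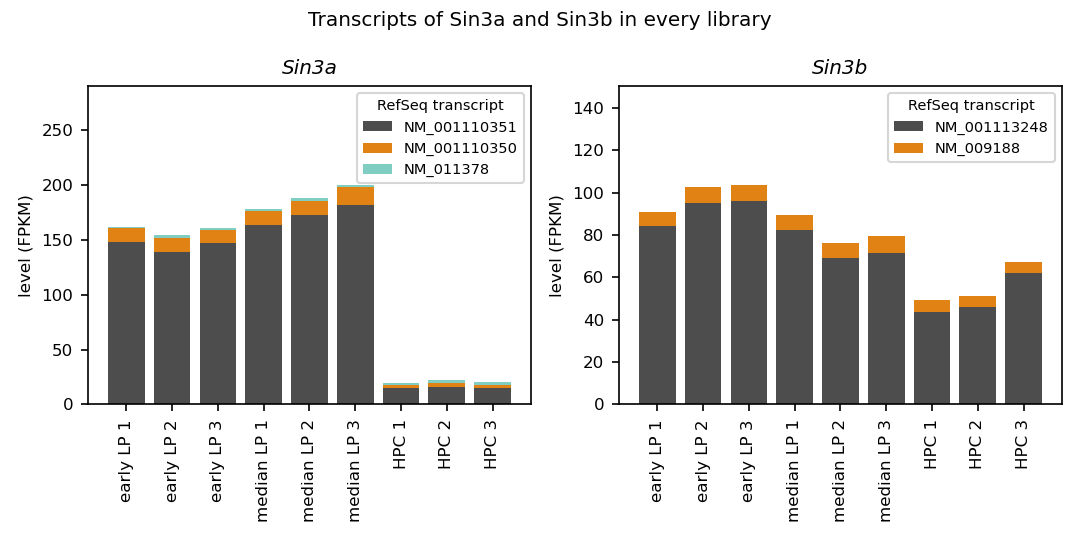
Level of each RefSeq transcript of Sin3a (left) and Sin3b (right) in every library, stacked (y axis, FPKM). The Sin3a bars reach 154 to 200 FPKM in LP and 19.9 to 22.1 in HPC, most of it NM_001110351, and the short Sin3b transcript NM_001113248 makes up most of each Sin3b bar.

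The genes adjoining Sin3a did not show a rise of like size. Within 500 kb, 21 other genes are listed and 18 were tested. In early LP 7 were higher and 5 lower than in HPC, with a median log2 fold change of -0.11, and in median LP 7 were higher and 6 lower, with a median of -0.05. Of the genes at its ends, Ptpn9, a tyrosine phosphatase, had 0.34 in early LP and 0.40 in median LP on the log2 scale, and Man2c1, a mannosidase, had -0.33 and -0.41. The genes with the largest changes in the window were Rpp25, a ribonuclease P subunit, at 1.65 FPKM in early LP, 3.03 for median LP and 0.0528 for HPC, and Scamp5, a secretory carrier membrane protein, at 3.67 FPKM (early LP), 4.19 (median LP) and 1.61 (HPC). The log2 fold change of Rpp25 was 4.81 in early LP and 5.69 in median LP, that of Scamp5 1.26 and 1.47. These genes were picked out after their values were seen, and their middles lie 433 and 383 kb from the Sin3a start.

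**Figure D3:**
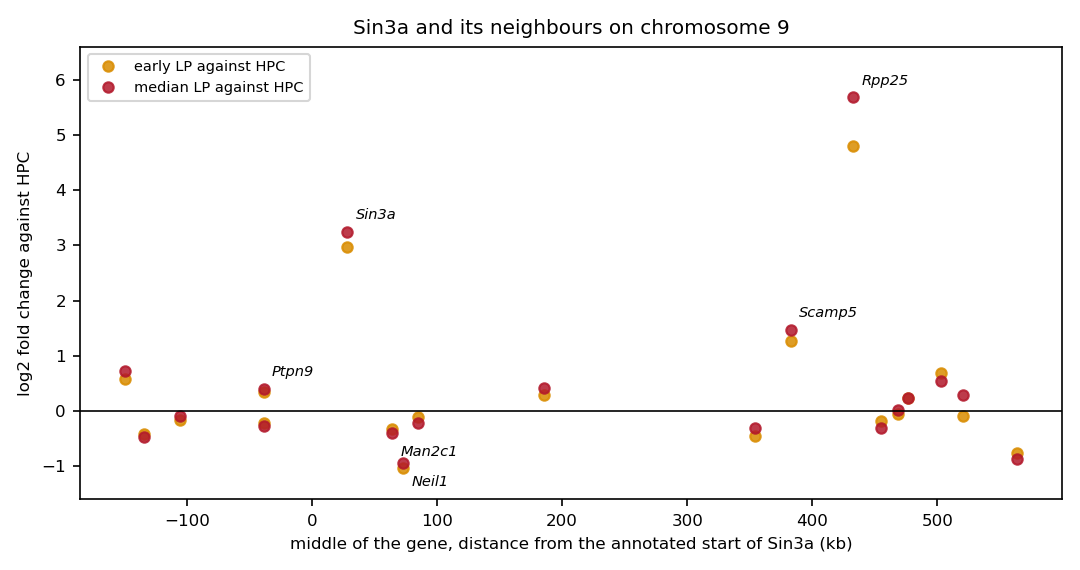
Log2 fold change against HPC (y axis) of Sin3a and the 18 tested genes within 500 kb, by the distance of each gene's middle from the annotated start of Sin3a in kilobases (x axis), for early LP and median LP. Sin3a is at 2.97 and 3.25 and Rpp25 at 4.81 and 5.69, and the other genes lie between -1.04 and 1.47.

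Sin3b encodes the second Sin3 scaffold. Its level was 90.7, 103 and 104 FPKM in early LP, 89.6, 76.1 and 79.5 for median LP and 49.2, 51.4 and 67.4 for HPC. Every LP library was above every HPC library, and the third HPC library was the closest. The log2 fold change was 0.75 in early LP (SE 0.09, edgeR adjusted p = 7.24e-06) and 0.55 in median LP (SE 0.09, edgeR adjusted p = 9.98e-05). Sin3b lies on chromosome 8 (chr8:72723288-72758203, mm10), whose 706 tested genes had a median log2 fold change of 0.53 in early LP and 0.51 in median LP, against -0.07 and -0.06 over the genes of all other chromosomes. The part of this chromosome-wide shift in the Sin3b result was not tested. Most of the gene's signal came from a short transcript, NM_001113248, whose predicted protein has 293 residues, against 1098 for NM_009188. The short transcript averaged 91.6 ± 6.62 FPKM in early LP, 74.3 ± 7.18 for median LP and 50.6 ± 10.02 for HPC, and the long transcript 7.36 ± 0.55 (early LP), 7.39 ± 0.583 (median LP) and 5.42 ± 0.128 (HPC) (SD, n = 3 each). The short form held 73.1% ± 0.297 of the estimated counts in early LP, 68.7% ± 2.98 for median LP and 66.7% ± 4.99 for HPC (SD, n = 3 each). Early LP did not overlap HPC in this share and median LP did (exact two-sided permutation test, p = 0.1 and p = 0.6; Benjamini-Hochberg 0.225 and 0.7714 over 9 tests).

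Hdac1 and Hdac2 encode the catalytic pair of the Sin3, NuRD and CoREST complexes. Hdac2 fell. It was at 46.4, 47.0 and 46.9 FPKM in early LP, 50.3, 45.8 and 44.75 for median LP and 74.95, 77.4 and 77.0 for HPC, so that all LP libraries lay below all HPC libraries. The log2 fold change was -0.68 in early LP (SE 0.06, edgeR adjusted p = 7.48e-07) and -0.62 in median LP (SE 0.06, edgeR adjusted p = 1.6e-06), or 1.6-fold and 1.54-fold lower. Hdac1 was at 75.7, 80.7 and 77.0 FPKM in early LP, 71.1, 67.1 and 68.7 for median LP and 62.3, 68.5 and 78.9 for HPC. In FPKM both LP groups overlapped HPC. The count test called Hdac1 higher in early LP, by 0.19 on the log2 scale (SE 0.07, edgeR adjusted p = 0.0317), and not in median LP, where the log2 fold change was 0.06 with a 95% interval of -0.10 to 0.21 (edgeR adjusted p = 0.496). The early LP call was lost without any 1 of the early LP libraries (adjusted p = 0.0541 to 0.0719), without the first or second HPC library (0.0981 and 0.0518) and with upper quartile scaling (0.172). Without the third HPC library, the highest of its group in Hdac1, it was kept, at 0.26 on the log2 scale (edgeR adjusted p = 0.0023). The Hdac1 entry of the table also carries the ID of Hdac1-ps, a processed pseudogene on another chromosome, so its reads may be shared.

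Hdac3 encodes the deacetylase of the NCoR complex, which is active only when bound to its scaffold. Its level was 33.5, 36.0 and 34.6 FPKM in early LP, 34.15, 32.4 and 32.9 for median LP and 42.3, 43.8 and 52.7 for HPC. No LP library reached the lowest HPC library. Hdac3 had a log2 fold change of -0.36 in early LP (SE 0.07, edgeR adjusted p = 0.000551) and -0.40 in median LP (SE 0.07, edgeR adjusted p = 0.00025).

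Gps2, a small subunit of the NCoR complex that also restrains inflammatory signalling, fell as well. It was at 30.8, 30.2 and 29.4 FPKM in early LP, 26.4, 26.4 and 26.3 for median LP and 40.1, 41.5 and 47.8 for HPC. The groups did not overlap, and the 3 median LP libraries were also below the 3 early LP libraries. This was a log2 fold change of -0.52 in early LP (SE 0.07, edgeR adjusted p = 2.67e-05) and -0.68 in median LP (SE 0.07, edgeR adjusted p = 2.83e-06).

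Ncor1, Tbl1x and Tbl1xr1 are the remaining NCoR members. None of them was called in early LP against HPC, where 73.2% of all tested genes were. Ncor1 and Tbl1xr1 were called in median LP against HPC, where 73.8% were. Ncor1 encodes the NCoR scaffold, and its level was 40.7, 30.6 and 30.6 FPKM in early LP, 31.4, 41.5 and 41.2 for median LP and 32.0, 31.5 and 24.5 for HPC. The groups overlapped. Ncor1 had a log2 fold change of 0.25 in early LP (SE 0.16, 95% interval -0.11 to 0.61, edgeR adjusted p = 0.19) and 0.42 in median LP (SE 0.16, edgeR adjusted p = 0.0358). Tbl1xr1, a WD-repeat adaptor that exchanges corepressors for coactivators, was at 10.2, 9.75 and 9.65 FPKM in early LP, 10.5, 10.4 and 10.7 for median LP and 10.4, 9.66 and 8.32 for HPC. The third HPC library was the lowest, and median LP lay above HPC by a narrow margin. Its log2 fold change was 0.13 in early LP (SE 0.10, edgeR adjusted p = 0.244) and 0.28 in median LP (SE 0.10, edgeR adjusted p = 0.0231). Tbl1x, its X-linked relative, averaged 14 ± 1.31 FPKM in early LP, 14.6 ± 1.54 for median LP and 14.7 ± 0.401 for HPC (SD, n = 3 each). Its log2 fold change was -0.04 in early LP (95% interval -0.26 to 0.18) and 0.06 in median LP (-0.16 to 0.27), with edgeR adjusted p = 0.722 and 0.625.

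The lowest Ncor1 and Tbl1xr1 levels were both in the third HPC library. In FPKM it was also the highest HPC library for Hdac1, Hdac3, Gps2, Sin3b and Tbl1x, but not for Hdac2 or Sin3a. Over 23 alternatives the early LP log2 fold change ranged from -0.43 to -0.28 for Hdac3 and from -0.59 to -0.46 for Gps2. Both kept their call. A long-transcript index was taken for each library as the slope, over all tested genes, of its deviation from the group mean against transcript length. The third HPC library stood apart at -0.1175 log2 per doubling of length, while the other 8 lay between -0.0481 and 0.0672. In that library Ncor1, with a count-weighted length of 8486 bases, was at 237.5 CPM, against 347 and 339 in the other HPC libraries, and Tbl1xr1, of 8127 bases, was at 68.8 CPM, against 94.3 and 89.5. Without the third HPC library the log2 fold change of Ncor1 in median LP was 0.26 (edgeR adjusted p = 0.12) and that of Tbl1xr1 was 0.15 (edgeR adjusted p = 0.0353). The call of Ncor1 was also lost without median LP library 2 or 3 (edgeR adjusted p = 0.111 and 0.116), and that of Tbl1xr1 without median LP library 3 (0.0749). The index sums to 0 within each group by construction, so as a covariate it can hardly move a group difference and served as no check of one. With offsets for length fitted in each library, Tbl1xr1 in median LP was 0.09 (edgeR adjusted p = 0.191) and Ncor1 0.21 (edgeR adjusted p = 0.0145). Ncor1 shares its deposited locus with Ttc19, and Pigl on the opposite strand overlaps 82 of its 12811 exon bases. Its main transcript, NM_001252313, which encodes 2454 residues, held 65.9% ± 0.916 of its counts in early LP, 65.3% ± 1.27 for median LP and 66.2% ± 2.72 for HPC (SD, n = 3 each), ranges that overlapped.

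**Figure D4:**
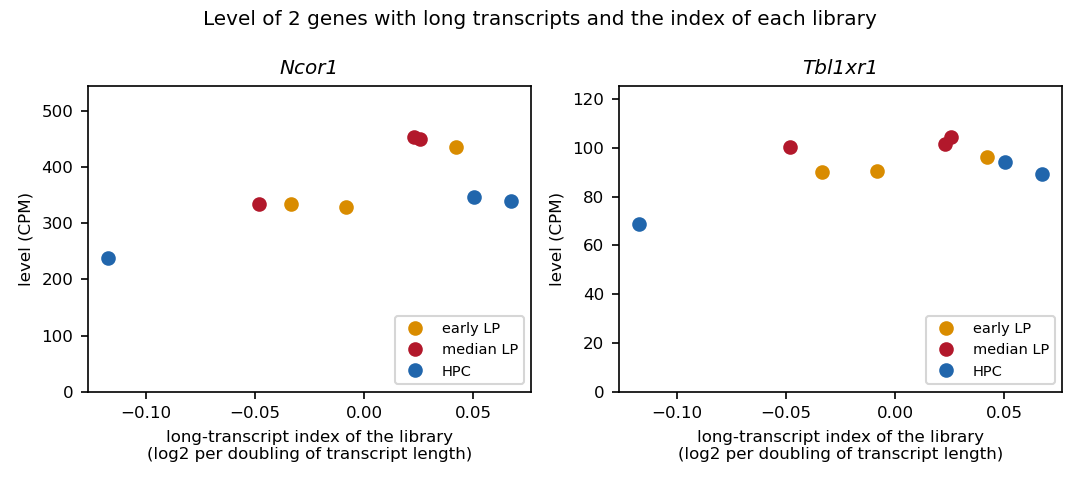
Level of Ncor1 (left) and Tbl1xr1 (right) in CPM (y axis) against the long-transcript index of each library (x axis, log2 deviation per doubling of transcript length), with 1 point per library. The third HPC library lies at the far left at -0.1175 and has the lowest level of both genes, 237.5 and 68.8 CPM.

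Set by FPKM, which scales for the deposited transcript lengths, the order of the 9 genes differed between LP and HPC. In early LP the order was Sin3a, Sin3b, Hdac1, Hdac2, Hdac3, Ncor1, Gps2, Tbl1x and Tbl1xr1, and the ranges of neighbours overlapped only between Hdac3 and Ncor1 and between Ncor1 and Gps2. Median LP had the same order but for Ncor1, which was above Hdac3 with overlapping ranges. In HPC the order was Hdac2, Hdac1, Sin3b, Hdac3, Gps2, Ncor1, Sin3a, Tbl1x and Tbl1xr1, and the first 5 formed a chain of overlapping ranges. By FPKM, Sin3a was thus the highest of the 9 in LP and the third lowest in HPC. By CPM, without scaling for length, it was also the highest in both LP groups. In HPC it was then at 136 CPM, below Ncor1, Hdac2 and Hdac1. It was above Hdac3 (99.1), Tbl1xr1 (84.2), Sin3b (76.2), Gps2 (61.9) and Tbl1x (41.2). The places of Sin3b, Tbl1x and Tbl1xr1 by FPKM also rest on the transcript lengths used.

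**Figure D5:**
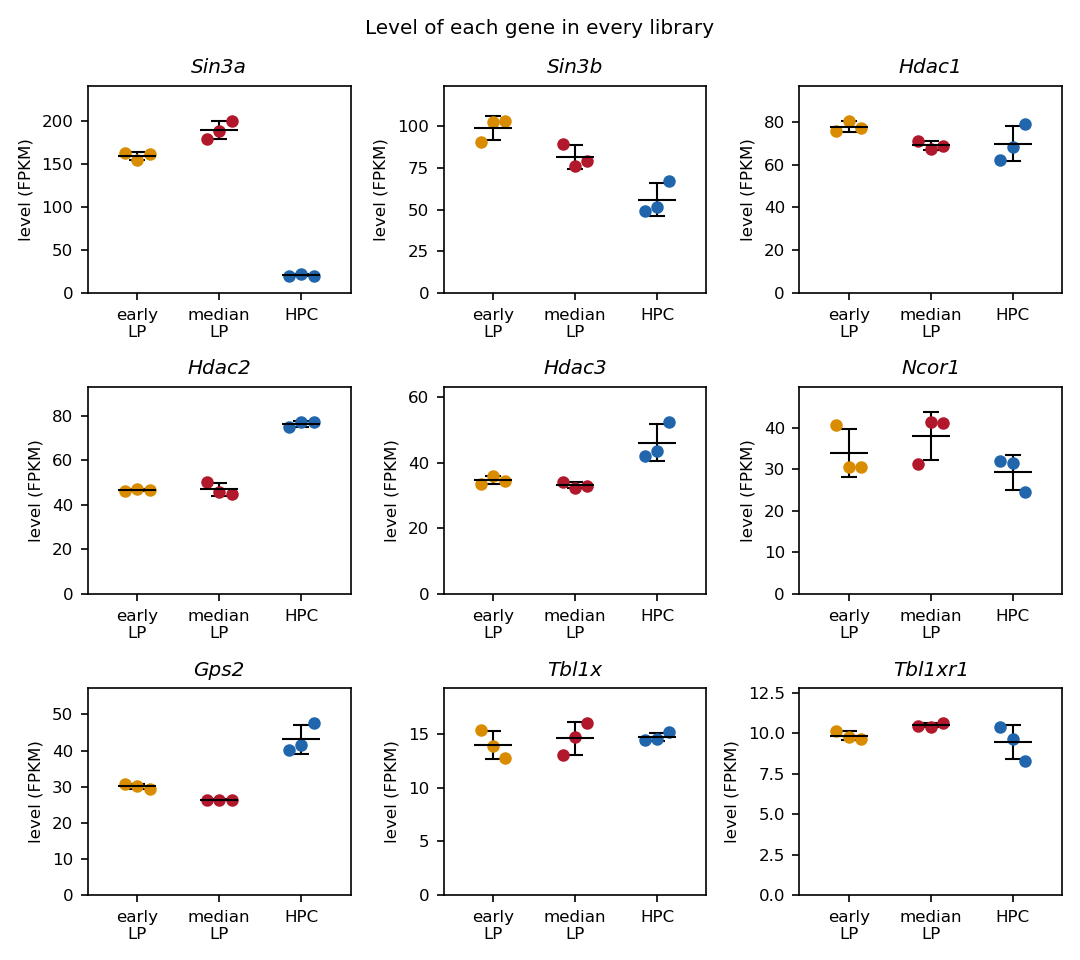
Level of each of the 9 genes in FPKM (y axis, from 0) in the 3 libraries of early LP, median LP and HPC; points are libraries, the bar is the mean and the whiskers are 1 SD. Sin3a lies at 154 to 200 FPKM in LP and at 19.9 to 22.1 in HPC, and Hdac2 at 44.75 to 50.3 in LP and at 74.95 to 77.4 in HPC.

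Ratios between related members were also taken within each library. The Hdac1 to Hdac2 ratio of FPKM averaged 1.66 in early LP, 1.47 for median LP and 0.91 for HPC. The Sin3a to Sin3b ratio averaged 1.61 in early LP, 2.32 for median LP and 0.373 for HPC. Its value below 1 in HPC rests on the short Sin3b transcript, whose length raises the gene's FPKM. By CPM, which does not scale for length, Sin3a was at 1066 in early LP, 1295 for median LP and 136 for HPC, above Sin3b at 129, 112 and 76.2 in the same groups. The long Sin3b transcript alone, at 5.42 FPKM in HPC, was also below the 20.7 FPKM of Sin3a. For Ncor1 to Hdac3, the ratio averaged 0.97 in early LP, 1.14 for median LP and 0.633 for HPC. In the HPC libraries it was 0.758, 0.72 and 0.465, lowest in the third, which stood apart in its long-transcript index. The part of that library's shift in this ratio was not tested. In these 3 ratios both LP groups lay above the whole HPC range. Each of the 6 differences had p = 0.1 in an exact two-sided permutation test on log2 ratios, the smallest that 3 against 3 allows, and 0.15 after Benjamini-Hochberg adjustment over 12 tests. The Tbl1x to Tbl1xr1 ratio averaged 1.42 in early LP, 1.38 for median LP and 1.56 for HPC. Both LP ranges overlapped HPC (exact permutation test p = 0.5 and 0.4, adjusted 0.545 and 0.48). The value above 1 rests on the deposited lengths, 2302 bases for Tbl1x and 8127 for Tbl1xr1. The GENCODE models of these transcripts have 5234 and 4209 exon bases instead. By CPM, Tbl1x was at 40.1 in early LP, 42.9 for median LP and 41.2 for HPC. Tbl1xr1 was above it, at 92.3, 102 and 84.2 CPM in the same groups.

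Between the leukemic phases, no member of the 9 was called in median LP against early LP by edgeR, where 2.48% of all tested genes were (1.48% higher, 0.997% lower). At an unadjusted p under 0.05 there were 3 members, against 16.5% of all tested genes, and DESeq2 called 1, Sin3a, against 4.49%. Sin3a was 0.28 higher in median LP on the log2 scale (SE 0.08, unadjusted p = 0.00531, edgeR adjusted p = 0.108), with all 3 median LP libraries above all 3 early LP libraries. Sin3b differed by -0.20 (SE 0.08, edgeR adjusted p = 0.258) and Gps2 by -0.16 (SE 0.07, edgeR adjusted p = 0.287). The adjusted p of Sin3a passed the threshold under 5 of 23 other ways of processing, at 0.0246 in DESeq2, 0.0433 with the 2 groups alone, 0.0352 with length offsets, 0.0391 without the third HPC library and 0.0066 with the long-transcript index, which can narrow the residual spread but can hardly move the difference. The CPM ranges of the 2 phases did not overlap for 6 of the 9 members, against 26.3% of all tested genes, and the FPKM ranges for 5, against 22.3%. Ranges of 3 libraries can lie apart with a small difference. Hdac2 was 1 of the 6 by CPM, with a log2 difference of 0.06 (edgeR adjusted p = 0.666). The members were also chosen with earlier results known, so these range counts are no result about them as a set. The Sin3a to Sin3b ratio was 2 to 2.52 in median LP and 1.5 to 1.79 in early LP (exact p = 0.1, adjusted 0.15).

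Of the 17 tested partners of Sin3, 4 were higher and 7 lower in early LP, and 4 higher and 6 lower in median LP, with medians of -0.07 and -0.11. Over all tested genes, 35.3% were higher and 37.9% lower in early LP, and 36% and 37.7% in median LP. The counts of every list below stand against these same shares. No list was tested as a set. Sap30, a Sin3 complex subunit, was at 82.4 ± 6.16 CPM in early LP, 82.3 ± 4.7 for median LP and 29.9 ± 2.44 for HPC (SD, n = 3 each), and its log2 fold change was 1.46 in both (edgeR adjusted p = 1.3e-08 and 1.28e-08). Ing1 and Ing2, which read methylated histone H3, rose by 0.81 and 0.83 in early LP and by 0.75 and 0.80 in median LP. Sap30, Ing1 and Ing2 lie on chromosome 8, like Sin3b, and the part of that chromosome's shift in their values was not tested. Sap30l, the fourth that rose, named after its value was seen, was at 0.40 and 0.41 and lies on chromosome 11. Rbbp7, a histone chaperone of the complex, fell by 0.51 in early LP and by 0.62 in median LP, as did Fam60a by 0.62 and 0.55.

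Among the 9 tested genes of the list set up around NCoR, 1 was higher and 7 lower in early LP and 1 higher and 6 lower in median LP. Over all tested genes, 35.3% were higher and 37.9% lower in early LP, and 36% and 37.7% in median LP. The medians of the list were -0.35 and -0.36. Not every gene of this list need be a subunit of the NCoR complex. Coro2a, an actin-binding component of the NCoR complex, was at 7.21 ± 0.769 CPM in early LP, 6.91 ± 1.01 for median LP and 73.2 ± 6.15 for HPC (SD, n = 3 each), a log2 fold change of -3.34 and -3.40 (edgeR adjusted p = 2.07e-10 and 1.76e-10). Cops2 fell by 0.57 in both phases. Trerf1, a zinc finger protein, was the gene of this list that rose, by 1.16 and 1.07. Hdac8, the remaining class I deacetylase, fell by 0.35 and 0.49.

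Hdac1 and Hdac2 are also subunits of the NuRD and CoREST complexes. In NuRD, 2 of 11 tested genes were higher and 7 lower in early LP, and 1 higher and 7 lower in median LP. Of all tested genes, 35.3% were higher and 37.9% lower in early LP, and 36% and 37.7% in median LP. Chd3, a remodelling ATPase, was at 1.15 ± 0.0782 CPM in early LP, 1.24 ± 0.282 for median LP and 54.7 ± 3.77 for HPC (SD, n = 3 each), or -5.58 and -5.45 on the log2 scale. Its relative Chd5 was at 5.25 CPM (early LP), 6.93 CPM (median LP) and 0.906 CPM (HPC) and rose by 2.52 and 2.92. Mta1, Mta3 and Cdk2ap1 fell by 0.95 to 1.00 in early LP and 1.08 to 1.16 in median LP. In CoREST, 2 of 10 tested genes were higher and 7 lower in early LP, and 2 higher and 8 lower in median LP, beside the same shares of all tested genes. Rcor2, a CoREST scaffold, had -2.52 and -2.63, and Kdm1a, the histone demethylase of the complex, fell by 0.54 and 0.65. Zmym3 fell by 0.71 and 0.87.

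Of the 7 class II and IV deacetylases, 3 were higher and 3 lower in early LP, and 2 higher and 3 lower in median LP. Hdac9 was at 58.3 ± 3.28 CPM in early LP, 69.9 ± 5.93 for median LP and 4.74 ± 0.67 for HPC (SD, n = 3 each), a log2 fold change of 3.62 and 3.88 (edgeR adjusted p = 5.01e-11 and 2.73e-11). Hdac5 rose by 1.28 and 1.00, while Hdac7 fell by 1.29 and 1.40 and Hdac10 by 0.92 and 0.80. Of the 7 sirtuins, 2 were higher and 3 lower in early LP, and 1 higher and 3 lower in median LP. Sirt1 rose by 0.36 and 0.43, while Sirt2 fell by 0.33 and 0.30, Sirt4 by 0.73 and 0.79 and Sirt5 by 0.66 and 0.86. Among the 13 acetyltransferases and coactivators tested, 3 were higher and 5 lower in each phase. Kat2b, an acetyltransferase, rose by 1.36 and 1.44, Ncoa1, a nuclear receptor coactivator, by 0.73 and 0.68, and Ep300, the p300 acetyltransferase, by 0.52 and 0.66. Med1, a Mediator subunit, fell by 0.59 and 0.31, and Carm1, an arginine methyltransferase, fell by 1.42 and 1.48. Rbbp7, Hdac7, Sirt2 and Carm1 share a deposited locus with another gene, where overlapping reads leave their values uncertain. The early LP call of Ep300 was lost without the first early LP library or the third HPC library (adjusted p up to 0.101), and the median LP call of Med1 in 8 of 23 alternatives (up to 0.192), among them without early LP library 2, median LP library 1 or 3, or HPC library 1 or 2.

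Of the 25 tested factors listed as recruiting NCoR or Sin3, not all of which need bind DNA themselves, 11 were higher and 8 lower in early LP. In median LP 12 were higher and 7 lower. Rxra, the partner of the retinoic acid receptor, was at 45.7 ± 4.88 CPM in early LP, 48.5 ± 2.32 for median LP and 6.82 ± 0.522 for HPC (SD, n = 3 each), a rise of 2.74 and 2.83. Nr1h3, an oxysterol receptor, rose by 3.12 and 3.36. Zbtb16, whose human relative is fused to RARA in rare promyelocytic leukemias, was at 0.169 ± 0.0794 CPM in early LP, 0.108 ± 0.0183 for median LP and 14.2 ± 2.64 for HPC (SD, n = 3 each). Cbfa2t3 fell by 1.42 and 1.64. Mxd1, a Mad family repressor that recruits Sin3, was the single gene of all these lists called between the phases. It was at 64.9 ± 16.0 CPM in median LP and 41.4 ± 1.51 in early LP (SD, n = 3 each), a log2 difference of 0.65 (edgeR adjusted p = 0.0346). The call was lost in 7 of 23 alternatives (adjusted p up to 0.148), namely in both limma fits, without any 1 of the early LP libraries, and without the first or second median LP library. Over the 8 lists, 99 genes were tested, of which 28 were higher and 47 lower in early LP, and 26 higher and 45 lower in median LP, with median log2 fold changes of -0.16 and -0.14, against -0.04 over all tested genes in each. The called shares of 75.8% and 71.7% lie near the 73.2% and 73.8% of all tested genes. Lower calls outnumbered higher ones by more in the lists than over all tested genes. Over all tested genes, 48.2% of the calls in early LP and 48.8% in median LP were higher. The lists were chosen with earlier results known and were not tested as sets, and these counts are therefore no result about the lists. Each rise or fall named in these lists, in log2 units with early LP before median LP, was called by edgeR.

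For each member, the genes with the closest pattern over the 9 libraries were found by the root mean square difference of centred log2 CPM among 9542 genes that averaged 5 CPM or more. For Sin3a these were Mefv, the pyrin gene, at 189 CPM in early LP, 217 for median LP and 25.2 for HPC (difference 0.111), and Lrp11, at 23.6 CPM (early LP), 24.7 (median LP) and 2.50 (HPC), with a difference of 0.115. BC056474 and Enkd1, both on chromosome 8, were closest to Sin3b (0.041 and 0.054). Thumpd3 and Cep68 came closest to Hdac2 (0.027 and 0.034), Ap1s1 and Siae to Hdac1 (0.025 and 0.036), and Grb2 and Gsk3a to Hdac3 (0.027 and 0.036). Son and Ttbk2 were nearest to Ncor1 (0.046 each), and Actl6a and Flywch1 to Gps2 (0.055 and 0.057). Brms1l and Ptpdc1 were nearest to Tbl1x (0.040 and 0.053) and Pdpk1 and Fam178a to Tbl1xr1 (0.042 and 0.046). The member's own root mean square was 1.471 for Sin3a, 0.332 for Sin3b, 0.308 for Hdac2 and 0.294 for Gps2. It was 0.278 for Ncor1, 0.188 for Hdac3, 0.167 for Tbl1xr1, 0.121 for Tbl1x and 0.101 for Hdac1. A small difference for a member that varied little need not be a closer match. Members and predicted genes were left out of this search.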

How the data were processed

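RNA was extracted with Trizol and made into libraries with an Illumina TruSeq RNA kit, per the labels' protocols. Reads were aligned with TopHat2 2.0.6 to mm10, per the submitters' processing notes. The authors deposited estimated counts and FPKM per transcript; the sources used here name no quantifier, annotation release or strand setting. Transcripts were summed per symbol. Of the low estimated counts, 89.7% to 91.5% were whole multiples, within 0.05, of a step for each library, which gives 20599969 to 28368698 fragments.

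Estimated counts were rounded and tested with edgeR 4.0.16 (R 4.3.3; TMM, filterByExpr, quasi-likelihood test over all 9 libraries), with Benjamini-Hochberg adjustment over 12837 genes; 3700 were left out as low. CPM used TMM library sizes. The common biological coefficient of variation was 9.81%. Ratios and transcript shares used exact permutation tests (scipy 1.17.1). Alternatives included limma 3.58.1 on log2(FPKM + 0.1) and DESeq2 1.42.0. Gene models came from GENCODE M21 and promoters from RefSeq GRCm38.p6.

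The members and lists were chosen with earlier results of these data known. All members were named. List genes were named if called between phases or among the 4 largest called changes of their list against HPC in either phase, and averaged 5 CPM or more where they were higher; 2 genes of closest pattern were named per member. Hdac8 and Sap30l were named outside this rule, after their values were seen, and some genes that it selects are not reported here.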

Additional observations from a re-analysis of the deposited data

How the results depend on the processing

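Results were recomputed under 23 alternatives, 3 of them added after seeing the data: recovered fragments, the long-transcript index as a covariate, and leaving out the library of highest index in each group. The index sums to 0 in each group, so the covariate narrows the spread and hardly moves a difference, and calls gained with it are no support. Sin3a, Sin3b, Hdac2, Hdac3 and Gps2 against HPC kept their direction and call in all 23; Sin3a ranged from 2.88 to 3.06 in early LP and from 3.13 to 3.33 in median LP on the log2 scale. The early LP call of Hdac1 was lost in 12 (adjusted p up to 0.172), the median LP call of Ncor1 in 5 (up to 0.12) and that of Tbl1xr1 in 7 (up to 0.237); the causes were not tested. Calls were also followed for 40 named genes besides the members and the genes of closest pattern. Of their 80 called values against HPC, 77 kept their call in all alternatives in which the gene was tested. Rpp25 and Zbtb16 were tested in 22 of the 23. The call was lost in 1 or more for 3 values (Ep300 and Mxd1 in early LP, Med1 in median LP), and 0 changed sign. Ncor1 lost its median LP call without median LP library 2 or 3 (0.111, 0.116) and without the third HPC library (0.12), and Tbl1xr1 without the third median LP library (0.0749). Values near 0 changed sign. In median LP against HPC, Hdac1 was -0.03 with upper quartile scaling and -0.01 in both limma fits, and Tbl1x was -0.02, -0.01 and -0.01 there, -0.04 to 0.16 with single libraries left out and -0.01 without the highest-index libraries. In early LP Tbl1x was -0.12 to 0.02 with single libraries left out. Upper quartile scaling moved the median of all genes to -0.11 and -0.12. The Tbl1x to Tbl1xr1 ratio between phases was -0.10 to 0.04 on the log2 scale with single libraries left out. The Ncor1 main transcript share against HPC was 0.563 percentage points in early LP by FPKM, -1.79 to 0.867 with single libraries left out, and -2.45 to 0.203 in median LP; that of Sin3a between phases was -0.238 to 0.532. Between the phases, where 0 members were called, 1 was called in DESeq2, with the 2 groups alone, with length offsets, and without the third HPC library, and 2 with the covariate; leaving out libraries gave 0 to 1. List genes called between phases numbered 1 in the reported fit, 0 in both limma fits, 2 with the 2 groups alone, 9 with the covariate and 0 to 2 without single libraries. All genes called between phases numbered 318, against 576 in DESeq2, 193 with a stricter filter (at least 10 counts), 605 with the 2 groups alone, 621 with length offsets, 1317 with the covariate, 116 without the highest-index libraries and 105 to 687 without single libraries. With the replicate number as a block, 192 genes were called between phases (67.7% higher, against 59.7%), with 6, 7 and 0 members called in the 3 comparisons. Same-numbered libraries correlated at -0.332 to 0.19 in their deviations, over 0.1 in 2 of 9 pairs, so the numbers were not taken as a pairing. With 3 libraries a group, exact tests cannot go below p = 0.1.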
